A study of Glycine max with 7 samples.

Results

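In embryos of soybean (Glycine max, cultivar Williams 82) at the cotyledon stage, 4651 regions of the genome held summits of both transcription factors GLYMA.04G093300 and GLYMA.06G314400 within 50 bp of each other. A summit is the position inside a peak at which the authors' peak caller placed the highest enrichment. These regions, called coincident here, were chosen from the peak lists of 4 chromatin immunoprecipitation sequencing (ChIP-seq) libraries, 2 for each factor. A site of a factor was made by joining peaks that overlapped by at least 1 bp between its 2 replicates. Sites of both factors that overlapped by at least 1 bp were joined into 1 region, and a region was coincident when any summit of GLYMA.04G093300 lay within 50 bp of any summit of GLYMA.06G314400. There were 12188 joined regions, of which 38.2% were coincident and 7537 had their summits farther apart. Counting also the 18403 GLYMA.04G093300 sites and the 27169 GLYMA.06G314400 sites that met no site of the other factor, coincident regions were 8.05% of 57760 regions.

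Cotyledon-stage embryos came from seeds of 3.5 to 4.5 mm, were fixed with 1% formaldehyde and gave chromatin fragments of 100 to 500 bp after sonication. GLYMA.04G093300 was pulled down with 2 µg of an antibody raised against a peptide of that protein (replicates 1 and 2), and GLYMA.06G314400 with 3 µg of an antibody raised the same way (replicates 2 and 3). All libraries are of Williams 82 with no treatment, each factor rests on 1 antibody, and the 3 input libraries were not analysed here. Whole embryos were used, so summits that coincide in the lists need not have been occupied in the same cells or at the same time.

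The peak lists name GLYMA.06G314400 AREB3, in Arabidopsis a bZIP factor of the family that binds abscisic acid response elements, DNA motifs with an ACGT core. Abscisic acid is a hormone that promotes the storage of reserves in the maturing seed and its later tolerance of drying. The lists name GLYMA.04G093300 HB22, a name given to homeobox proteins, which bind DNA through a homeodomain and favour AT-rich cores. Factors that bind next to each other on 1 stretch of DNA can give ChIP summits close together. Factors on neighbouring elements of a longer regulatory region can give overlapping peaks with separate summits. Replicate summits of GLYMA.04G093300 itself lay a median of 42.5 bp apart over all joined regions, so the 50 bp limit does not cleanly separate these cases.

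The rule used the summits of all 4 libraries, so widths, overlaps, folds and distances below are descriptions with no test. An exact two-sided permutation test over 2 libraries of each factor could not go below p = 0.333. The lists held 39721 to 50665 peaks, and 9.498% to 12.4% of the peaks of a list lay in coincident regions. The depth behind each fold is unknown, since a peak list gives no read numbers. Of the GLYMA.04G093300 sites 15.4% lay in a coincident region, and of the GLYMA.06G314400 sites 11.9%.

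Most coincident regions were simple, as were most regions with summits apart. In 4111 coincident regions (88.4%) each library had exactly 1 peak, and in 4485 (96.4%) 1 site of GLYMA.04G093300 met 1 site of GLYMA.06G314400. The shares were close to these in regions with summits apart, at 85.6% and 95.4%. A further 332 coincident regions had 5 member peaks, and the highest number was 11, in 3 coincident regions. The sites were largely superimposed: the overlap covered a median of 93.1% of the GLYMA.04G093300 site and 80.1% of the GLYMA.06G314400 site in coincident regions, against 75.9% and 67.4% where summits lay apart. Sites with close summits are less offset by construction, so this contrast is not independent of the rule. The overlap was about as long in both classes, with a median of 381 bp in coincident regions and 383 bp in regions with summits apart. The sites themselves were narrower in coincident regions, at 451 bp against 540 bp for GLYMA.04G093300 and 508 bp against 598 bp for GLYMA.06G314400.

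The smallest distance between summits of the factors had a median of 17 bp over the coincident regions. It was 0 bp in 96 of them, 10 bp or less in 1621 (34.9%) and 25 bp or less in 3045 (65.5%). Over all joined regions the counts fell steadily with distance, with 1482 regions at 0 to 9 bp, 596 at 40 to 49 bp and 555 at 50 to 59 bp. The 50 bp limit therefore cut through a continuous distribution with no gap. Regions just inside it, at 46 to 50 bp, numbered 283 and had a median width of 625 bp, and those just outside, at 51 to 55 bp, numbered 274 with 602 bp. Median folds inside were 5.24, 4.34, 8.02 and 9.06 for GLYMA.04G093300 replicates 1 and 2 and GLYMA.06G314400 replicates 2 and 3. Outside they were somewhat higher in each library, at 5.31, 4.43, 8.66 and 9.77 in the same order.

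The crowding towards 0 bp was seen in the smallest of several distances and in none of the 4 single pairs of libraries. In each pair, taking the summit of the highest-fold peak, the counts at 0 to 9 bp were no higher than those at 10 to 19 bp. Between GLYMA.04G093300 replicate 1 and GLYMA.06G314400 replicate 3, 508 regions fell at 0 to 9 bp, 534 at 40 to 49 bp and 524 at 50 to 59 bp. Between GLYMA.04G093300 replicate 2 and GLYMA.06G314400 replicate 2, the counts were 366, 470 and 470. Replicates of 1 factor behaved otherwise in the same 12188 regions, with counts of 1658, 1003 and 825 between the GLYMA.04G093300 replicates and of 2998, 910 and 628 between the GLYMA.06G314400 replicates. When the 2 replicates' summits were averaged for each factor, 472 regions fell at 0 to 9 bp, 528 at 40 to 49 bp and 578 at 50 to 59 bp. Of the coincident regions, 2220 (47.7%) had such averaged summits within 50 bp.

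**Figure D1:**
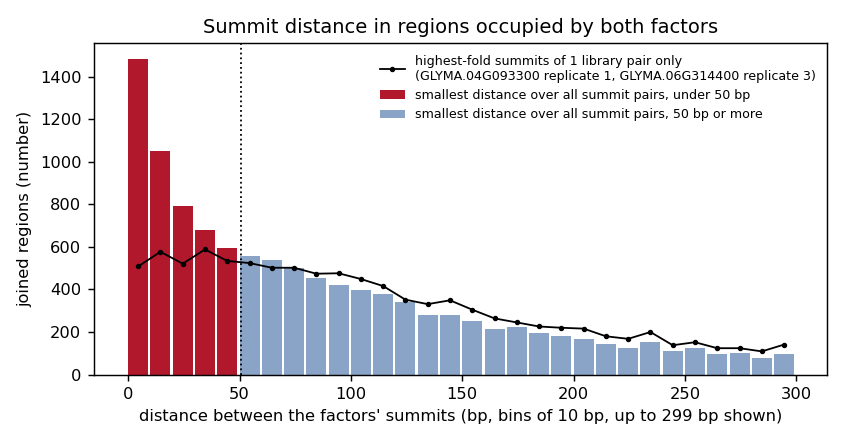
Number of joined regions (vertical axis) by the distance in bp between summits of the 2 factors (horizontal axis, bins of 10 bp), as the smallest over all summit pairs (bars) and between the highest-fold summits of 1 library pair (line). The bars fall from 1482 regions at 0 to 9 bp to 596 at 40 to 49 bp, while the line stays between 508 and 588 in that range; the dotted line marks the limit, and regions at exactly 50 bp are in the first blue bar.

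The number of library pairs that coincided divided the regions into grades. There are 4 pairs of 1 library of each factor. In 825 coincident regions (17.7%) all 4 pairs had summits within 50 bp, in 559 (12.02%) 3 pairs did, in 2036 (43.8%) 2 pairs did, and in 1231 (26.5%) a single pair did. The 4 summits of the highest-fold peaks spanned a median of 41 bp where all 4 pairs coincided, 64 bp with 3 pairs, 108 bp with 2 and 153 bp with 1. The grade counts pairs of summits within 50 bp, so this order follows largely by construction. In 704 regions (15.1%) the 4 summits lay within 50 bp in all, and in 811 (17.4%) they spanned over 200 bp.

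GLYMA.04G093300 replicate 1 coincided with the other factor more often than replicate 2 did. Replicate 1 had a summit within 50 bp of one of GLYMA.06G314400 replicate 2 in 2922 regions and of replicate 3 in 2899. For GLYMA.04G093300 replicate 2 these numbers were 2217 and 2242. Among the regions with 2 coinciding pairs, 943 joined GLYMA.04G093300 replicate 1 with both GLYMA.06G314400 libraries, and 497 joined GLYMA.04G093300 replicate 2 with both. The reverse patterns, 1 GLYMA.06G314400 library with both GLYMA.04G093300 libraries, were rarer at 249 for replicate 2 and 243 for replicate 3. The choice between the GLYMA.06G314400 libraries thus changed little, and the choice between the GLYMA.04G093300 libraries changed more. Without GLYMA.04G093300 replicate 1, whose place was then taken by all peaks of replicate 2, 3348 regions were coincident, 24.8% of joined regions. Without GLYMA.04G093300 replicate 2 there were 5527, or 32.6%. Leaving out GLYMA.06G314400 replicate 2 or 3 gave shares of 32.1% and 32.0%. All these shares were below the reported 38.2%, and each such run had fewer library pairs in which summits could coincide.

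Replicate summits of a factor were farther apart in coincident regions than in the other joined regions. The median distance between the GLYMA.04G093300 replicates was 50 bp in coincident regions and 39 bp where the factors' summits lay apart. For GLYMA.06G314400 it was 25 bp in coincident regions and 20 bp in the others. The replicate summits of GLYMA.04G093300 were within 50 bp of each other in 50.7% of coincident regions and 59.3% of the others, and those of GLYMA.06G314400 in 77.1% and 82.0%. The distance of 50 bp between the GLYMA.04G093300 replicates was within the range of their median distances to the other factor, which were 42 bp from replicate 1 to each GLYMA.06G314400 library and 57 and 55 bp from replicate 2. The rule selects on the distance between the factors, so their medians in coincident regions are held low by construction. It accepts any of the 4 library pairs, so replicate summits that lie apart give more positions at which the other factor can coincide. The larger replicate distances in coincident regions are therefore not independent of the rule. Over all joined regions the median was 42.5 bp between the GLYMA.04G093300 replicates and 120 to 143 bp from them to the other factor. In the regions where all 4 pairs coincided, the GLYMA.04G093300 replicates were 19 bp apart at the median and the GLYMA.06G314400 replicates 14 bp. Requiring all 4 pairs within 50 bp also holds the replicates close by construction.

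The regions ranked highest were those whose weakest library stood highest in its own list. The fold of a peak is the ratio the authors' caller gave for that peak in its library, and its percentile is its rank among all peaks of that list. The strongest coincident region lay on chromosome 5 from 4890471 to 4891281. Its folds were 11.9 and 10.04 in GLYMA.04G093300 replicates 1 and 2 and 53.5 and 44.8 in GLYMA.06G314400 replicates 2 and 3. All 4 peaks stood above the 98th percentile of their lists, and the nearest summits were 23 bp apart. The second region, on chromosome 12 from 9187871 to 9190438, was a composite of 8 peaks over 2568 bp. GLYMA.04G093300 reached 11.2-fold and 9.34-fold enrichment in it, and GLYMA.06G314400 39.2-fold and 39.6-fold. The strongest GLYMA.06G314400 peaks of the 2 replicates lay at different places in it, and the 4 summits spanned 1252 bp although the nearest pair was 22 bp apart.

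The third region, on chromosome 5 from 1551811 to 1552576, had GLYMA.04G093300 folds of 15.3 and 11.3 beside GLYMA.06G314400 folds of 34.8 and 33.7, and a summit of each factor on the same base. The fourth, on chromosome 14 from 48673267 to 48674194, had GLYMA.04G093300 folds of 16.02 and 8.75 beside GLYMA.06G314400 folds of 32.1 and 37.6. The replicates of GLYMA.04G093300 differed most there among these 4 regions. The fifth, on chromosome 3 from 40533948 to 40534933, had GLYMA.04G093300 folds of 10.7 and 9.12 beside GLYMA.06G314400 folds of 33.5 and 32.1, with 3 coinciding pairs. The sixth, on chromosome 19 from 42957082 to 42958309, had the highest GLYMA.04G093300 folds of the 10 regions, 16.1 and 17.02, beside 31.0 and 34.1 for GLYMA.06G314400.

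The seventh region, on chromosome 17 from 6401944 to 6402772, had GLYMA.04G093300 folds of 12.04 and 12.4 beside GLYMA.06G314400 folds of 30.8 and 37.8, with the nearest summits 4 bp apart. The eighth, on chromosome 11 from 1335121 to 1335666, was the narrowest of the 10 at 546 bp and had GLYMA.04G093300 folds of 14.4 and 10.4 beside GLYMA.06G314400 folds of 30.6 and 34.0. In it both GLYMA.06G314400 summits fell on 1 base, 44 bp from the centre of the region. The ninth, on chromosome 19 from 2535871 to 2536581, had GLYMA.04G093300 folds of 14.7 and 11.8 beside GLYMA.06G314400 folds of 36.9 and 30.4 and was the only one of the 10 in which all 4 library pairs coincided. The tenth, on chromosome 12 from 2969450 to 2970202, had GLYMA.04G093300 folds of 10.3 and 8.24 beside GLYMA.06G314400 folds of 39.9 and 31.1, and a single coinciding pair at 48 bp. In these 10 regions, high folds in all 4 libraries thus went with 1 to 4 coinciding pairs. Among the 100 highest regions, 21 had all 4 pairs within 50 bp, near the share of 17.7% over all coincident regions.

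None of the 5 regions with the tightest summits was among the 10 strongest. On chromosome 1 from 56163616 to 56164488, the 4 summits lay within 5 bp, 222 to 227 bp from the centre of an 873 bp region. GLYMA.04G093300 reached 7.55-fold and 5.64-fold enrichment there, and GLYMA.06G314400 15.6-fold and 17.7-fold. A region on chromosome 19 from 36170511 to 36171554, with a span of 9 bp, combined closeness and strength, with GLYMA.04G093300 folds of 11.9 and 9.02 beside GLYMA.06G314400 folds of 25.5 and 32.7. The other 3 of the 5 tightest lay on chromosome 13 from 29421309 to 29421734 (span 8 bp), chromosome 20 from 42018356 to 42018750 (9 bp) and chromosome 3 from 38810702 to 38811277 (10 bp). The one on chromosome 20 was weak, with GLYMA.04G093300 folds of 3.65 and 3.43 beside GLYMA.06G314400 folds of 3.72 and 6.40. Its lowest peak stood at the 11.9th percentile of its list. In the regions on chromosomes 1 and 19 all 4 summits lay well off the centre, as the map of summits shows.

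**Figure D2:**
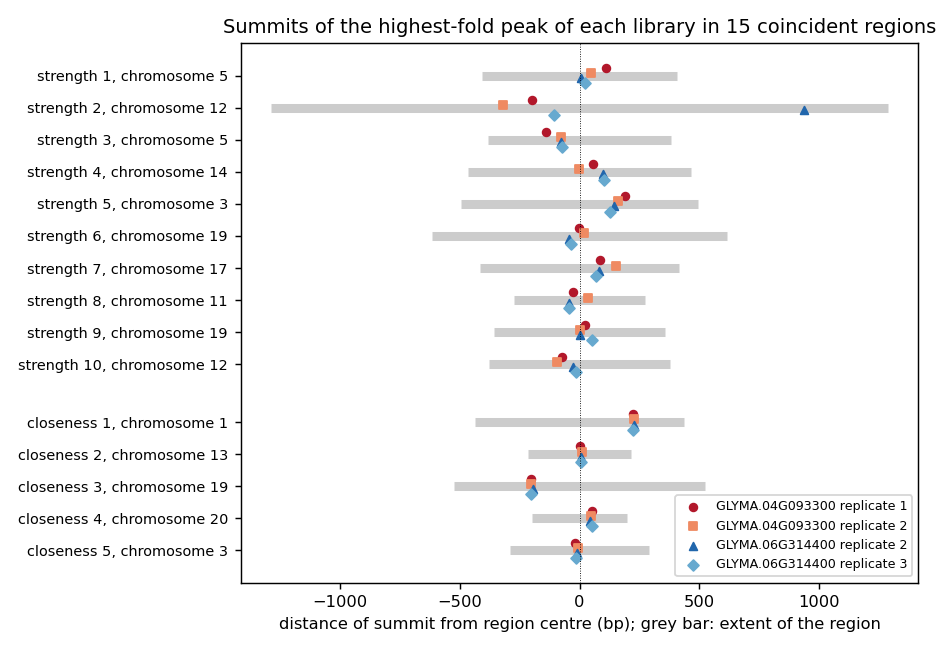
Position of the summit of the highest-fold peak of each library, in bp from the centre of the region (horizontal axis), for the 10 strongest coincident regions (strength 1 to 10) and the 5 with the smallest span (closeness 1 to 5); grey bars give the extent of each region. In the second strongest region 1 GLYMA.06G314400 summit lies 934 bp to the right of the centre and the span is 1252 bp, while in the 5 tightest regions the markers lie within 5 to 10 bp.

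At the limit of 50 bp stood a region on chromosome 5 from 38220937 to 38221577, with GLYMA.04G093300 folds of 10.9 and 9.87 beside GLYMA.06G314400 folds of 29.8 and 27.4. Others at exactly 50 bp were on chromosome 4 from 4089701 to 4090560 and on chromosome 10 from 45286820 to 45287493. At 51 bp, and so not coincident, were regions on chromosome 12 from 37340507 to 37341213, with GLYMA.04G093300 folds of 7.04 and 6.49 beside GLYMA.06G314400 folds of 16.9 and 20.2, on chromosome 4 from 4181588 to 4182265 and on chromosome 6 from 16100734 to 16101245. The widest coincident region, on chromosome 6 from 21481971 to 21486684, covered 4714 bp. It was also 1 of the 3 with 11 member peaks, and its nearest summits were 40 bp apart. The narrowest, on chromosome 9 from 42548706 to 42548975, covered 270 bp. All 4 of its library pairs coincided, at GLYMA.04G093300 folds of 4.57 and 5.60 beside GLYMA.06G314400 folds of 3.23 and 4.08.

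Peaks in coincident regions had lower folds than peaks in joined regions with summits apart, in each of the 4 libraries. The median fold was 5.14 against 5.47 in GLYMA.04G093300 replicate 1 and 4.22 against 4.43 in replicate 2. It was 7.58 against 8.64 in GLYMA.06G314400 replicate 2 and 8.89 against 10.7 in replicate 3. As percentiles of their lists these medians were 70.2 against 75.2, 61.3 against 67.02, 58.6 against 64.3 and 63.5 against 70.3. With each factor's libraries averaged, coincident minus other joined regions came to -5.93 percentile points for GLYMA.04G093300 and to -6.43 points for GLYMA.06G314400. They still stood above sites of 1 factor, whose median percentiles were 61.8, 54.3, 53.7 and 57.3 in the same order of libraries. Those sites were also narrower than the sites of coincident regions, which had medians of 451 bp for GLYMA.04G093300 and 508 bp for the other factor, against 417 and 462 bp for the sites of 1 factor. Leaving out GLYMA.06G314400 replicate 3 left a difference of -1.66 points for GLYMA.06G314400, and leaving out GLYMA.04G093300 replicate 1 left -3.48 points for GLYMA.04G093300. In these runs every peak of the remaining library counted as a site, so the set of regions changed too. In the reported regions the difference was -5.01 and -5.67 points in GLYMA.04G093300 replicates 1 and 2. It was -5.76 and -6.84 points in GLYMA.06G314400 replicates 2 and 3.

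**Figure D3:**
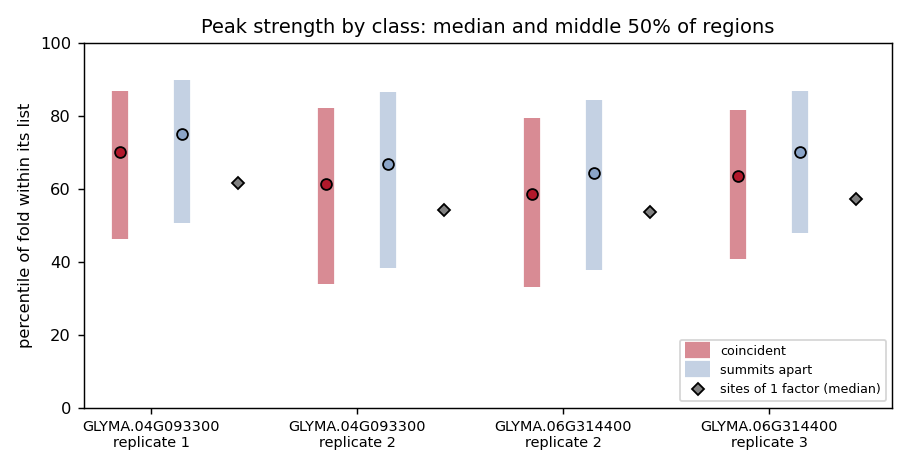
Percentile of fold within its own list (vertical axis) for each library, with the median (circles) and middle 50% (bars) of coincident regions and of joined regions with summits apart, and the median of sites of 1 factor (diamonds). Coincident regions lie below regions with summits apart and above sites of 1 factor in all 4 libraries, for example at 70.2, 75.2 and 61.8 in GLYMA.04G093300 replicate 1.

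Width moved with both. Coincident regions had a median width of 596 bp against 787 bp for regions with summits apart, and 517 of them (11.1%) were 1 kb or wider against 2046 (27.1%) of the others. In 10 groups of equal number by width, 77.9% of the narrowest joined regions (270 to 463 bp) were coincident and 19.5% of the widest (1242 to 4714 bp). The share fell from each group to the next. By construction, a narrow region leaves summits less room to lie apart. The share with all 4 pairs coinciding was 18.1% in the narrowest group and 1.48% in the widest.

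Grouped by width, the lower strength of coincident regions did not keep its sign. In 10 groups by the width of the factor's own site, the median percentile of GLYMA.04G093300 was lower in coincident regions in 5 groups and higher in 5, with differences of -3.23 to 3.95 points and a mean of 0.251 points. For GLYMA.06G314400 it was lower in 2 groups, the widest, and higher in 8, with differences of -4.76 to 5.00 points and a mean of 1.77 points. Grouping by the width of the joined region gave means of 0.630 points for GLYMA.04G093300, again with 5 groups lower and 5 higher, and 3.12 points for GLYMA.06G314400, with 4 lower and 6 higher. The joined width grows with the offset between the sites, so at equal joined width coincident regions hold wider single sites by construction, and those means are not independent of the rule. The share of coincident regions also fell with the width of a factor's own site, with 53.2% in the narrowest and 24.1% in the widest group by the GLYMA.04G093300 site. Grouped by the GLYMA.06G314400 site, the narrowest group held 52.5% and the widest 24.4%. These groupings by width were chosen after the data were seen.

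**Figure D4:**
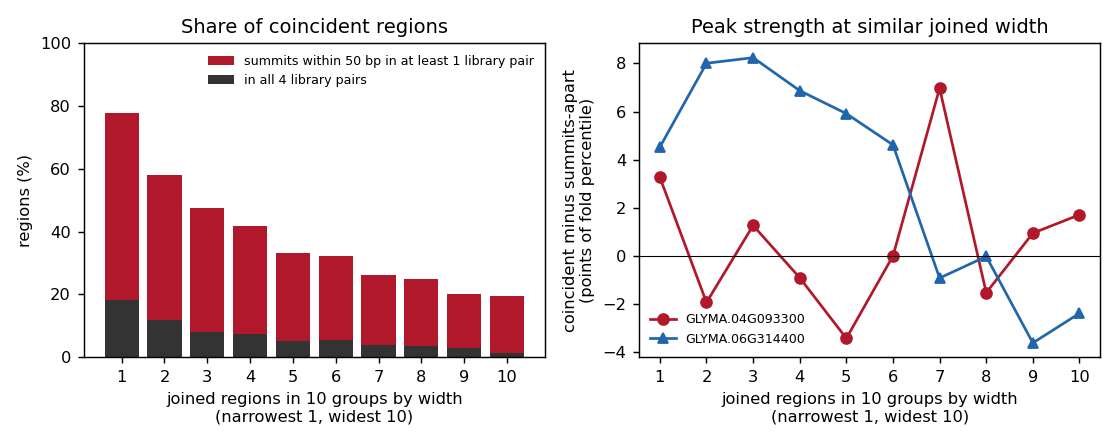
Left, share of joined regions (%) that are coincident in at least 1 library pair or in all 4, in 10 groups of equal number from the narrowest to the widest. Right, median percentile of coincident minus summits-apart regions in the same groups of joined width for each factor, which is positive for GLYMA.06G314400 in the 6 narrowest groups and changes sign between groups for GLYMA.04G093300.

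The strength of one factor in a coincident region was almost unrelated to the strength of the other. Across the 4651 regions, Spearman's rho between the percentiles of a GLYMA.04G093300 and a GLYMA.06G314400 library was 0.040, 0.072, 0.070 and 0.013 in the 4 pairs. Between the replicates of GLYMA.04G093300 it was 0.59, and between those of GLYMA.06G314400 0.87. The regions share libraries and are given as a description. In the 825 regions where all 4 pairs coincided, rho between the factors was -0.0084 to 0.057. It was 0.045 to 0.077 in regions with summits apart.

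**Figure D5:**
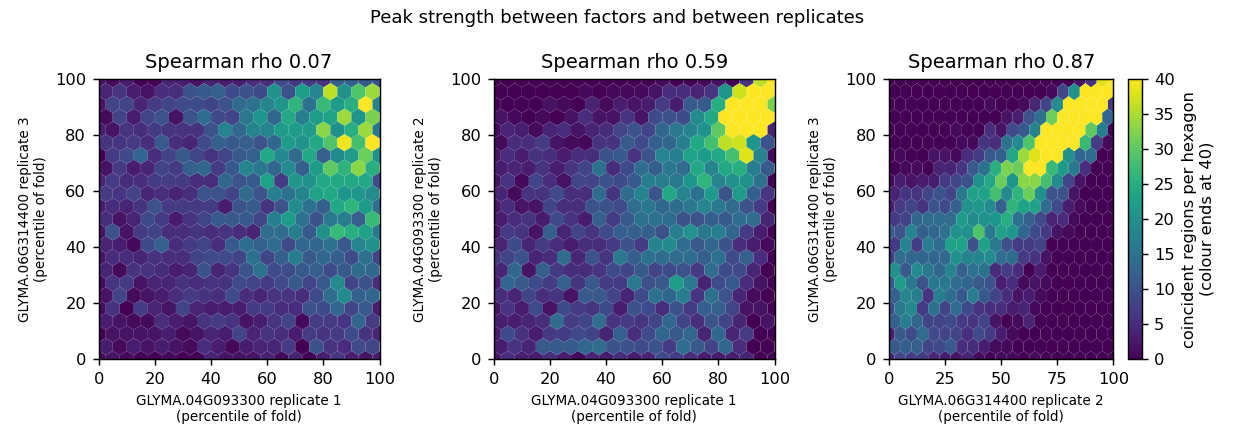
Percentile of fold in 1 library against another for the 4651 coincident regions, with colour giving the number of regions per hexagon, for a pair between factors (left) and the replicate pairs of each factor (middle and right). The points fill the left panel (rho 0.07) and follow the diagonal in the replicate panels (rho 0.59 and 0.87).

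Regions strong for both factors were a small share of each class. In 100 coincident regions (2.15%) the mean percentile of each factor was above 90, against 318 (4.22%) of the regions with summits apart. In 536 (11.5%) GLYMA.04G093300 alone was above 90, and in 434 (9.33%) GLYMA.06G314400 alone, against 14.5% and 13.4% of the regions with summits apart. The share strong for both depends on the share strong for each factor. Whether both were strong more or less often than those shares give was not tested. In 687 (14.8%) both were below the 50th percentile, against 797 (10.6%) of the regions with summits apart. A further 933 coincident regions (20.1%) had only GLYMA.04G093300 below 50 and 1136 (24.4%) only GLYMA.06G314400. Among the regions with summits apart these shares were 19.7% and 22.0%. In 3891 coincident regions (83.7%) the highest-fold peak of every library had a q of 1e-05 or lower, against 86.7% of regions with summits apart.

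The regions in which all 4 pairs coincided were stronger than the remaining coincident regions although they were narrow. GLYMA.04G093300 replicates 1 and 2 had median folds of 5.52 and 4.34 there, and GLYMA.06G314400 replicates 2 and 3 of 9.10 and 10.2, at a median width of 556 bp. Regions with a single coinciding pair were 642 bp wide and had medians of 5.13, 4.19, 6.45 and 7.77 in the same order of libraries. The median percentile of GLYMA.06G314400 replicate 2 was 50.2, 60.9, 55.9 and 66.4 with 1, 2, 3 and 4 pairs. For GLYMA.04G093300 replicate 1 it was 69.9, 67.9, 71.5 and 75.8, so strength did not rise at every step. Set against regions with summits apart, the 825 regions differed by -1.25 points for GLYMA.04G093300 and by 0.351 points for GLYMA.06G314400. Coincident regions of 1 kb or more had GLYMA.04G093300 folds of 6.38 and 5.19 beside GLYMA.06G314400 folds of 10.9 and 12.8. Although strong, they coincided in all pairs less often, in 57 of the 517 (11.03%). Among coincident regions under 1 kb, 768 of 4134 (18.6%) did so.

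Position along the chromosomes was not part of the rule. Coincident regions on the 20 chromosomes numbered 4628, with 23 more on unplaced scaffolds. The middle 50% of the chromosome span held 20.2% of coincident regions against 19.1% of those with summits apart, and the outer 10% at each end together held 41.6% against 41.8%. By chromosome the difference in the middle 50% averaged 0.717 points ± 3.31 (SD over 20 chromosomes) and was positive on 12 and negative on 8, so it was smaller than the spread between chromosomes. Both classes come from the same libraries, and no test over libraries was possible.

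The share of joined regions that were coincident ran from 34.6% on chromosome 5 to 45.1% on chromosome 14, with a median of 37.9%. In 20 bins along the pooled chromosomes it was 32.4% to 44.3%, and the bin at 32.4%, just past the midpoint, held 111 joined regions. Chromosome 13 had the most coincident regions, 376, and also the most joined regions, 920, of which 40.9% were coincident. The middle 50% of its span held 54.5% of its coincident regions and 50.9% of those with summits apart. The median folds of the coincident regions of chromosome 13 in the 4 libraries, 5.04, 4.21, 7.68 and 9.07, were close to those on the other chromosomes, 5.14, 4.21, 7.58 and 8.89. Over the 20 chromosomes, the middle 20% of the span held 240 coincident regions (5.19%), against 4.72% of the regions with summits apart. The outermost 1 Mb at each end held 364 coincident regions (7.87%), against 8.23% of those with summits apart.

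A coincident region lay near other coincident regions about as often as a region with summits apart did. Another coincident region lay within 5 kb of 736 of them (15.9%), and a coincident region lay within 5 kb of 15.7% of the regions with summits apart. The median gap to the nearest joined region of either class was 9448 bp for coincident regions and 8528 bp for regions with summits apart. A GLYMA.04G093300 site without the other factor lay within 5 kb of 43.8% of coincident regions and 45.5% of the others. For GLYMA.06G314400 sites without the other factor these shares were 48.9% and 50.4%.

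Genes and sequence under the regions were not analysed here. No source used here names the genome build of the peak coordinates.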

How the data were processed

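Peak lists of 4 ChIP-seq libraries were used. Reads were aligned with Bowtie 0.12.7 and peaks called with MACS3, per the submitters' processing notes; no source used here states the settings, the genome build or the caller's control. The lists were deposited by the authors per library and hold, for each peak, a fold (a ratio within the library), a −log10 q-value and a summit offset. Every deposited q-value was 0.01 or lower. Samples were grouped and numbered by their titles, from which the numbers in the peak names differ.

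Sites, joined regions and distances were computed with Python 3.11.15, numpy 2.4.6, pandas 2.3.3 and scipy 1.17.1, and the code was tested on simulated data. Each library's highest-fold peak in a region gave its fold, percentile and summit. Chromosome span ended at the last peak end in any list. Coordinates are 1-based.

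Regions named are the 10 with the highest smallest percentile over the 4 libraries, the 5 with the smallest summit span, 3 each just inside and outside 50 bp, the widest, the narrowest and the one with most peaks. Members and rules were chosen with earlier results of these data known. Alternatives changed the q-value, the number of peaks, the overlap, the summit distance, the summits counted, the library pairs required, the width grouping and the libraries entered.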

Additional observations from a re-analysis of the deposited data

How the results depend on the processing

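No paired analysis was possible because the factors share only replicate number 2 and no result comes from a test. The motif and promoter content named among the planned results was not run, as no genome of the build was at hand. The number of coincident regions follows the distance allowed, at 3045 within 25 bp and 7119 within 100 bp, which is 24.98% and 58.4% of joined regions. With the 10000 highest peaks of each library 256 regions (24.6%) were coincident. The share was 36.9% at a q of 1e-05, 45.6% with an overlap of 50% of both and 36.3% with the highest-fold summits only. With all 4 library pairs required it was 6.77% (825 regions). Leaving out 1 library gave 3348 to 5527 regions and shares of 24.8% to 32.6%. Coincident regions were narrower than regions with summits apart under every alternative, by -225 bp (10000 peaks), -141.5 bp (50% overlap), -170 bp (25 bp), -228 bp (100 bp), -210 bp (highest-fold summits), -231 bp (all 4 pairs) and -177 to -147 bp with 1 library left out, against -191 bp as reported.

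The lower percentile of coincident regions did not keep its sign in groups of similar width. Within 10 groups by the factor's own site the mean difference was 0.251 points for GLYMA.04G093300, with 5 groups lower and 5 higher, and 1.77 points for GLYMA.06G314400. By joined width, which includes the offset that the rule selects on, it was 0.630 (10 groups) and 0.598 points (50 groups) for GLYMA.04G093300 and 3.12 and 3.47 points for GLYMA.06G314400. With all 4 pairs required it was -1.25 points for GLYMA.04G093300 and 0.351 points for GLYMA.06G314400. In the other alternatives run the sign held. For GLYMA.04G093300 the difference was -4.76 points at a q of 1e-05, -0.670 with 10000 peaks, -10.3 with 50% overlap, -4.80 within 100 bp and -7.02 with the highest-fold summits. For GLYMA.06G314400 it was -1.15 with 10000 peaks, -9.84 with 50% overlap and -7.67 with the highest-fold summits. Leaving out 1 library gave -6.56 to -3.48 points for GLYMA.04G093300 and -8.09 to -1.66 for GLYMA.06G314400. In the middle 50% of chromosomes, the 10000 highest peaks gave 23.3% of coincident regions, 4.35 points above regions with summits apart. Leaving out 1 library gave 0.297 (without GLYMA.06G314400 replicate 2) to 1.63 points (without GLYMA.04G093300 replicate 1), against 1.06. The cause of these moves was not tested. Widths and folds also depend on sequencing depth, which is unknown.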
